A study of Mus musculus with 6 samples.

Results

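The Ly6 surface protein family was examined in liver RNA of mice with sickle cell disease, through the members Ly6d, Ly6a, Ly6c1, Ly6c2, Ly6e, Ly6g, Ly6h, Ly6i and Ly6k. These 9 genes were taken by symbol from the count tables. Of them, 8 had rows among the 24421 gene rows, and Ly6g is not analysed here. The family was selected on the SS against AS difference of Ly6d in these same libraries, which was already known. The SS against AS values of the members are therefore given as a description. Which members were called by the fit over all genes is stated for completeness and supports nothing.

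All 6 libraries came from livers of 7-month-old Townes mice, a line whose own globin genes were exchanged for human globin. The labels of the 3 AS libraries list the alleles Hbatm1(HBA)Tow and Hbbtm2(HBG1,HBB*)Tow with Hbbtm3(HBG1,HBB)Tow, so they carry the sickle allele beside a normal one. Those of the 3 SS libraries list Hbatm1(HBA)Tow and Hbbtm2(HBG1,HBB*)Tow alone, so their beta-globin alleles are all of the sickle form. Whether each replicate is its own animal is not given, so p-values and errors measure the spread between libraries only. The series title concerns bile secretion and liver injury in sickle cell disease, and SS against AS is its only contrast.

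Ly6 proteins are small cysteine-rich proteins that share a three-finger fold and are held on the outer cell membrane by a glycosylphosphatidylinositol (GPI) anchor. In the mouse their genes lie mainly in a cluster on chromosome 15, and many serve as surface markers of blood cells. Ly6C marks monocytes and some endothelial cells, Ly6G marks neutrophils, Ly6a encodes Sca-1 of blood stem cells and vessels, and Ly6d marks lymphoid progenitors that turn to the B lineage and squamous epithelial cells.

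Gene reads per library ran from 6670011 to 13700194. In each library, levels are given as CPM, read counts scaled to the gene reads of the library with trimmed-mean factors. Of all genes, 12622 had enough reads to test, of which 122 (0.967%) had an edgeR adjusted p under 0.05, 115 of them (0.911%) higher in SS. In 12.1% of tested genes all SS libraries lay above all AS libraries. The 10 hepatocyte markers checked all had reads, and their summed level was 93803 to 137671 CPM in AS and 78302 to 105192 CPM in SS. The counts of AS replicates 2 and 3 stood closest, with a chi-square of 3.98 per tested gene against 32.9 to 131 for the other pairs within a genotype. They still differed by more than sampling noise and were kept as separate libraries.

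The sequences bear on how far reads can be assigned to single members. The first 120 coding bases of Ly6c1 and Ly6c2 are shown with the 6 positions that differ in capitals, followed by the same stretch of Ly6d, all from GENCODE transcripts on mm10. Each gene lies on the minus strand, and each stretch spans an intron, at chr15:75047420-75048511 for Ly6c1, chr15:75110578-75111667 for Ly6c2 and chr15:74762782-74763560 for Ly6d.
Ly6c1: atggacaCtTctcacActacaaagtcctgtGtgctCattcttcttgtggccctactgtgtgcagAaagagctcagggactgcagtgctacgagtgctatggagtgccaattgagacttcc
Ly6c2: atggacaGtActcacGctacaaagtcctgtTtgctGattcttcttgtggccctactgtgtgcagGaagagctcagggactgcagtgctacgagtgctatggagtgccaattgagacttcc
Ly6d: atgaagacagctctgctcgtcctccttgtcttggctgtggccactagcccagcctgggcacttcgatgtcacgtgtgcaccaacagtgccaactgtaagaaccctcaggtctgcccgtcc

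Over the whole coding sequence Ly6c1 and Ly6c2 were 97.7% identical, Ly6a and Ly6i 86.3%, and Ly6a and Ly6c2 81.6%. Ly6d was 46.2% to 52.4% identical to the other members, a range near that of Ly6e, Ly6h and Ly6k against the rest. As a measure of reads that fit more than 1 gene, each 50-base window of a member's main transcript was looked up in the transcripts of all other genes, on both strands. The read length is not given in the sources used here, so the window is a chosen size. Of such windows, 36.7% in Ly6c1, 33.0% in Ly6c2 and 4.97% in Ly6i were found in another gene, as were 91 of the 906 in Ly6a, and none of the 695 windows of Ly6d or the 2232 of Ly6e. Ly6k shared 29.2% with Gm17189, an antisense gene that overlaps it. The values of Ly6d and Ly6e thus rest on sequence without a copy among annotated transcripts. Those of Ly6c1, Ly6c2, Ly6a and Ly6i are uncertain to the extent of the shared windows. Reads of Ly6k in the windows shared with Gm17189 cannot be told from that gene without a strand setting. Alignment records with several positions made up 18.4% to 22.8% of records in AS and 14.7% to 16.2% in SS, and were not assigned to genes. Records that overlapped no counted feature made up 53.9% in SS replicate 1 and 40.7% to 43.8% in the other 5 libraries. Records without an alignment made up 3.52% to 3.84% in AS and 4.32% to 5.60% in SS.

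Ly6d was near the detection limit in AS liver and well above it in SS liver. It is a gene of 3 exons on chromosome 15 (74762056 to 74763620, mm10, minus strand). AS replicates 1, 2 and 3 had 23, 6 and 16 reads of Ly6d, or 2.65, 0.967 and 1.31 CPM. SS replicates 1, 2 and 3 had 608, 2204 and 506 reads, or 80.2, 159.8 and 39.6 CPM. The genotypes did not overlap, and the lowest SS library stood 14.9-fold above the highest AS library.

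The mean level of Ly6d was 56.8-fold higher in SS (93.2 ± 61.2 against 1.64 ± 0.889 CPM, SD, n = 3), and the fitted log2 change was 5.80 (SE 0.591, 95% interval 4.49 to 7.11), the 20th highest of 12622. The SS libraries differed among themselves by 4.04-fold. Without SS replicate 2, the highest, the log2 change was 5.14, and leaving out both AS replicate 1 and SS replicate 3 gave 6.65. In the fits that left out 1 library it ran from 5.14 to 6.29.

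**Figure D1:**
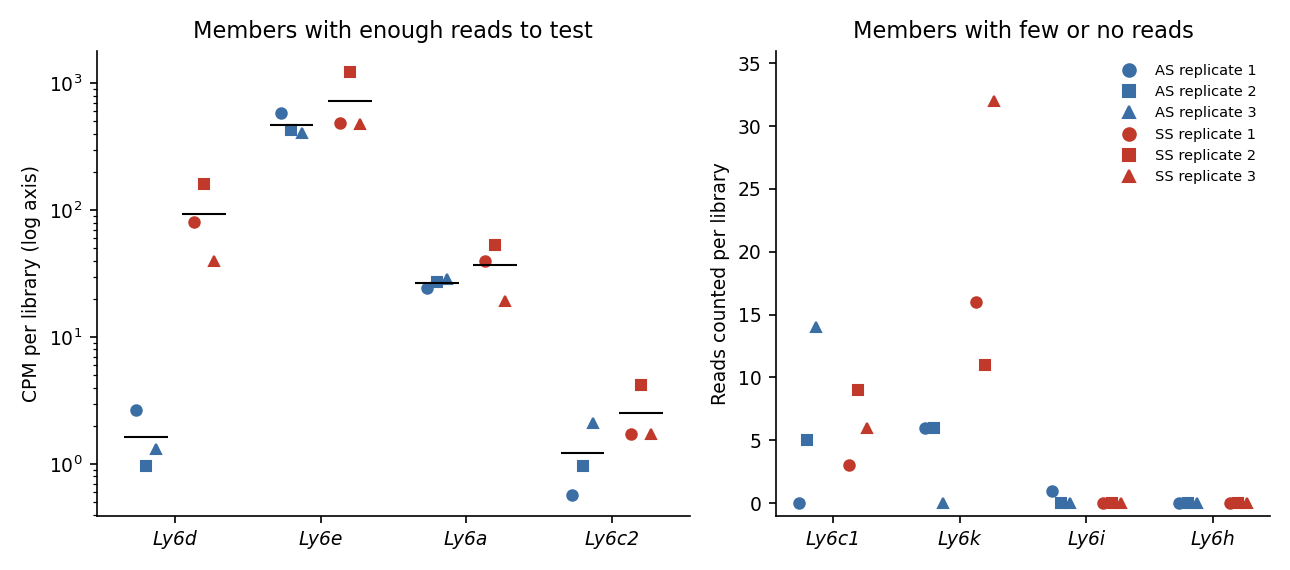
Left, CPM per library (log axis) of the 4 members with enough reads to test, with a bar at the mean of each genotype. Right, reads counted per library of the 4 other members. Ly6d is the member whose SS libraries (39.6 to 159.8 CPM) all lie above the AS libraries (0.967 to 2.65 CPM).

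Ly6e was the most abundant member in both genotypes. It encodes a broadly expressed, interferon-inducible Ly6 protein (chromosome 15, 74955051 to 74959905, plus strand). AS replicates 1, 2 and 3 had 583, 426 and 406 CPM of Ly6e, and SS replicates 1, 2 and 3 had 486, 1229 and 476 CPM. SS replicate 2 was 2.58-fold above the lowest SS library, while the other SS libraries lay within the AS range. The log2 change was 0.63 (SE 0.388, 95% interval -0.23 to 1.49), and 0.013 without SS replicate 2.

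Ly6a, which encodes the stem cell antigen Sca-1 and is also carried by vessels and induced by interferon, lies at 74994877 to 74998031 on the minus strand. AS replicates 1, 2 and 3 had 24.5, 27.1 and 28.7 CPM of Ly6a, a narrow spread. SS replicates 1, 2 and 3 had 39.5, 53.2 and 19.3 CPM, so that SS replicate 3 lay below and the other SS libraries above every AS library. The groups overlapped, with a log2 change of 0.48 (SE 0.346, 95% interval -0.29 to 1.25), which was 0.11 without SS replicate 2 and 0.78 without SS replicate 3.

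The Ly6C antigen is encoded by Ly6c1 and Ly6c2, and both were scarce. Ly6c2 (75108158 to 75111970) had 5, 6 and 26 reads in AS replicates 1, 2 and 3, or 0.576, 0.967 and 2.13 CPM. It had 13, 58 and 22 reads in SS replicates 1, 2 and 3, or 1.72, 4.21 and 1.72 CPM. AS replicate 3 lay above SS replicates 1 and 3, so the groups overlapped. The log2 change was 1.03 (SE 0.697, 95% interval -0.51 to 2.57), with 1.73 without AS replicate 3 and 0.45 without SS replicate 2.

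Ly6c1 (75044018 to 75048830) had 0, 5 and 14 reads in AS replicates 1, 2 and 3 and 3, 9 and 6 in SS replicates 1, 2 and 3. That was too few to test, and the SS libraries lay inside the AS range. Summed over libraries, 19 and 18 reads put SS at 0.752 of AS (95% interval 0.372 to 1.51), which covers counting error only.

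The other 3 members had few reads or none. Ly6k, best known from testis and sperm (74796874 to 74799986), had 6, 6 and 0 reads in AS replicates 1, 2 and 3 and 16, 11 and 32 in SS replicates 1, 2 and 3. In CPM, SS replicate 2 (0.798) lay below AS replicate 2 (0.967), so the groups overlapped. Summed, SS stood at 3.90 times AS (95% counting interval 2.08 to 7.98). Ly6i (74979534 to 74983430) had 1 read, in AS replicate 1. Ly6h, a brain member that binds nicotinic acetylcholine receptors (75551268 to 75567255), had 0 reads in all 6 libraries, which allows up to 3 reads, or 0.218 to 0.483 CPM depending on the library.

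In all, 4 of the 8 members passed the filter on low counts, and 1 of these, Ly6d, had an edgeR adjusted p under 0.05. Since the family was chosen with this contrast known, nothing is read from that share against the 0.967% of all genes. All 4 had fitted values above 0, beside 56.3% of all tested genes, and their median log2 change was 0.83 against 0.08 over all genes. The 4 members that did not pass the filter are not in these counts. The shared sign and the median include Ly6d, the gene on which the family was chosen. They are descriptions and do not show a rise of the family, since the intervals of Ly6a, Ly6c2 and Ly6e each included 0. SS replicate 2 held the highest SS value in 5 of the 6 members with SS reads, Ly6k being the exception.

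**Figure D2:**
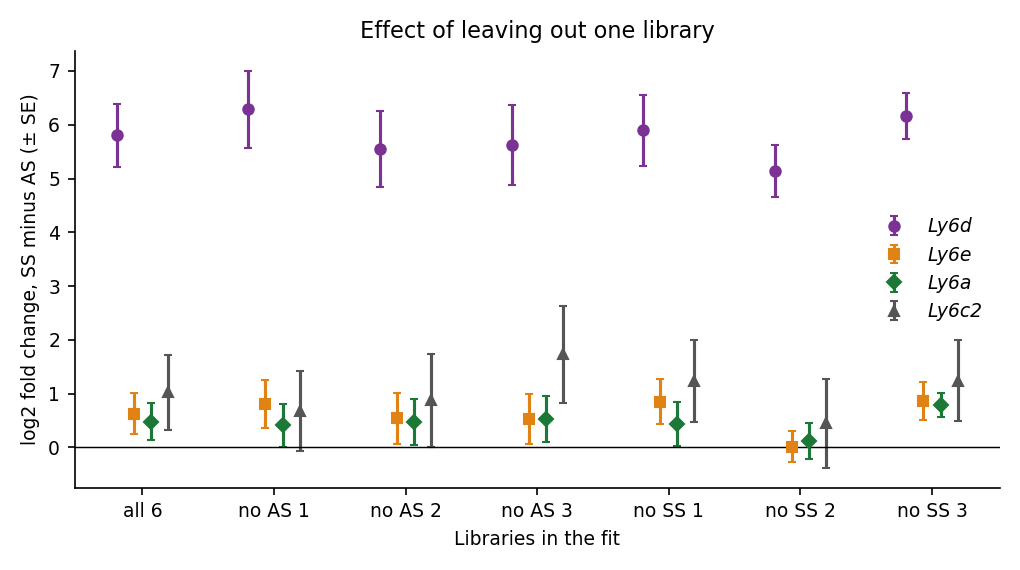
Fitted log2 change, SS minus AS (± SE), of the 4 tested members with all 6 libraries and with each library left out in turn. Ly6d stays between 5.14 and 6.29, and Ly6e falls to 0.013 without SS replicate 2.

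Levels of different genes were compared per kb of exon, over the 6 members with reads in both genotypes. The length was that of all annotated exons of a gene joined, 3784 bases for Ly6e, 2740 for Ly6c2 and 1677 for Ly6c1. Their main transcripts have 2281, 822 and 844 bases, while Ly6d has 744 by either measure. The order of the scarce members and the percentages of Ly6e below thus depend on this choice of length. In AS liver the order was Ly6e (125 ± 25.6 CPM per kb, SD, n = 3), Ly6a (22.2 ± 1.74), Ly6d (2.21 ± 1.20), Ly6k (0.666 ± 0.601), Ly6c2 (0.446 ± 0.294) and Ly6c1 (0.388 ± 0.351). The last 3 differed by less than their spread between libraries. In SS liver Ly6d moved from the third to the second place, with Ly6e at 193 ± 114, Ly6d at 125 ± 82.2, Ly6a at 31.0 ± 14.1, Ly6k at 2.18 ± 1.08, Ly6c2 at 0.930 ± 0.524 and Ly6c1 at 0.302 ± 0.0788 CPM per kb. With all exons joined, the SS levels of Ly6e and Ly6d differed by less than their spread between libraries. Within a library the ratio of Ly6d to Ly6e needs no scaling between libraries. Per kb, Ly6d stood at 2.31%, 1.15% and 1.64% of Ly6e in AS replicates 1, 2 and 3, and at 83.9%, 66.1% and 42.3% in SS replicates 1, 2 and 3. The ratio did not overlap between genotypes, which supports nothing, since the family was selected on Ly6d in this contrast. In contrast to the CPM of Ly6d, the ratio was not highest in SS replicate 2.

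The genes nearest to Ly6d had few reads. The stretch from Jrk to Top1mt on chromosome 15, 976 kb long, holds 26 genes with rows, among them the 8 members. Lynx1, 9.0 kb from Ly6d, encodes a Ly6 protein that tunes nicotinic receptors. It had 0, 7 and 12 reads in AS replicates 1, 2 and 3 and 20, 38 and 17 in SS replicates 1, 2 and 3. Its groups did not overlap in CPM, but its log2 change of 1.67 (SE 0.926) stayed short of the threshold (adjusted p = 0.483 by edgeR). D730001G18Rik, 7.3 kb away on the other side, had 1 read in all, in AS replicate 1. Gml and Gml2, 49.8 and 55.5 kb from Ly6d, had 0 reads in AS. In SS replicate 2 they had 8 and 14 reads, in SS replicate 3 1 and 2, and in SS replicate 1 none. Slurp1, a secreted Ly6 protein of skin, had 4 reads, all in SS replicate 2.

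**Figure D3:**
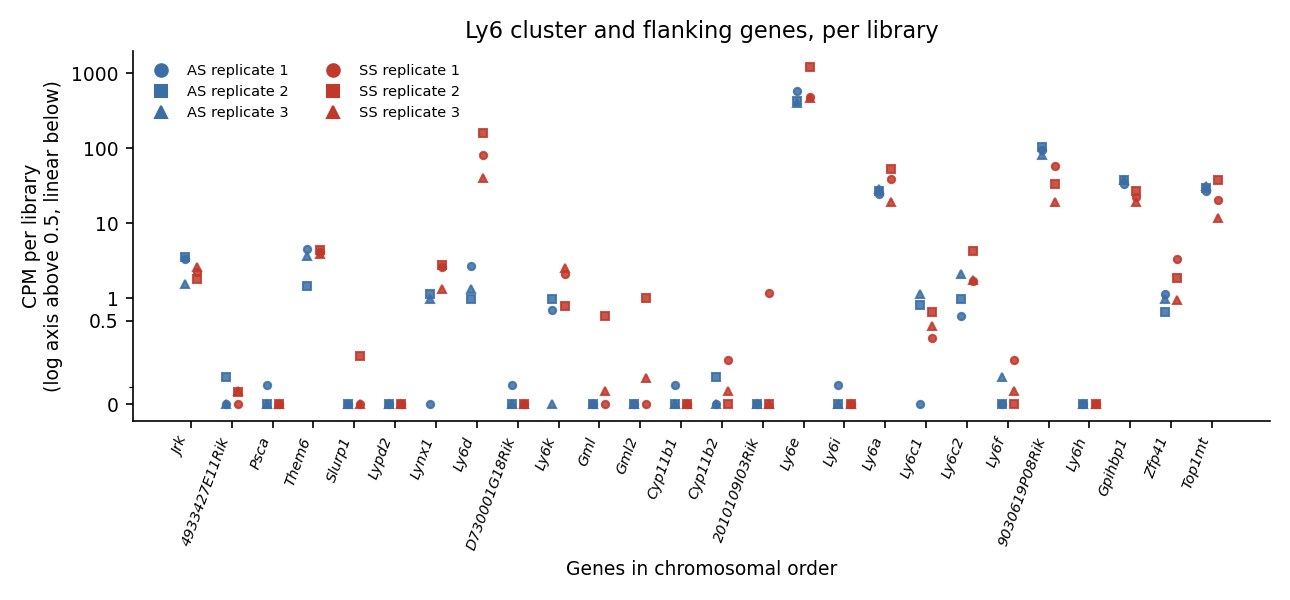
CPM per library of the genes with rows from Jrk to Top1mt, in chromosomal order (log axis above 0.5 CPM, linear below). The SS libraries of Ly6d lie at 39.6 to 159.8 CPM and the AS libraries at 0.967 to 2.65 CPM. Those of its neighbour Lynx1 lie at 1.33 to 2.76 and 0 to 1.13 CPM.

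The rest of the Ly6/uPAR domain family was examined through 34 further genes by name, of which 28 had rows, 7 had no read in any library and 6 had enough reads to test. None of the 6 was called by edgeR, by DESeq2 or by limma-voom, and 1 had an unadjusted edgeR p under 0.05. That gene was Gpihbp1, which carries lipoprotein lipase across capillary walls, with 33.5, 37.7 and 37.3 CPM in AS replicates 1, 2 and 3 and 22.6, 27.0 and 19.4 CPM in SS replicates 1, 2 and 3. The SS libraries all lay below the AS libraries, with a fitted log2 value of -0.65 and an SE of 0.248, which did not pass (adjusted p = 0.316 by edgeR). Cd59a, which shields cells from complement, averaged 109 ± 39.5 CPM over AS and 107 ± 48.8 CPM over SS libraries (SD, n = 3; log2 change -0.021, 95% interval -0.88 to 0.84), a value whose sign depended on scaling and libraries. Cd59b had a log2 change of -0.87 (SE 0.572), Plaur, the urokinase receptor, 0.87 (SE 0.818), and Lypd1 -0.029 (SE 0.410), whose sign also depended on them. The median of the 6 was -0.025, against 0.08 over all genes tested, and 0.23 against 0.36 when libraries were scaled by their totals alone. The 25 tested genes for building and attaching the GPI anchor gave no call by edgeR, DESeq2 or limma-voom and no unadjusted p under 0.05, with a median log2 change of -0.14 (0.17 when scaled by library totals alone). Pign, an enzyme of anchor synthesis, had the lowest p of them (adjusted p = 0.451 by edgeR, log2 change 0.56, SE 0.293).

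**Figure D4:**
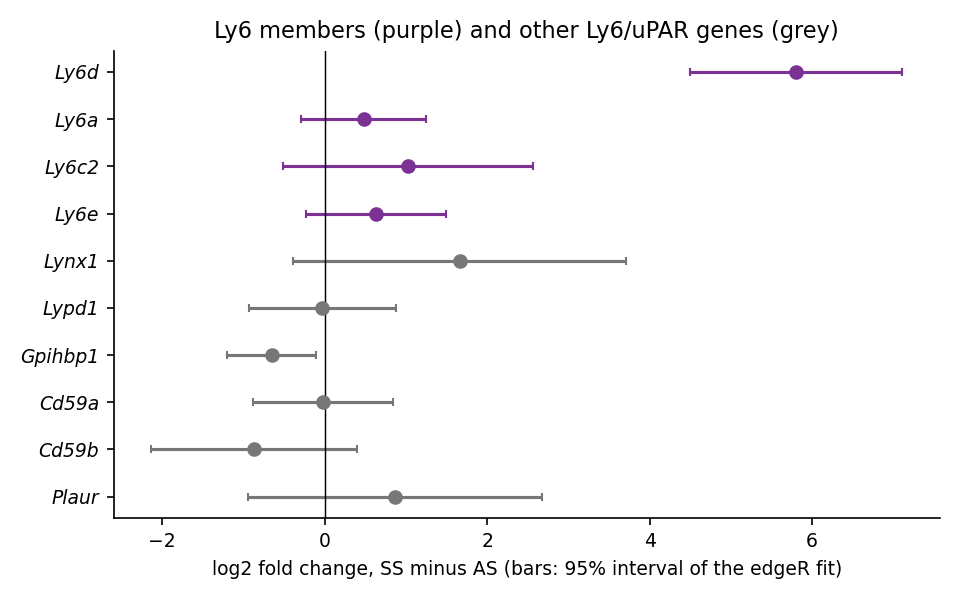
Fitted log2 change, SS minus AS, with its 95% interval, of the 4 tested Ly6 members (purple) and the 6 tested other Ly6/uPAR domain genes (grey). The interval of Ly6d runs from 4.49 to 7.11, and those of the 3 other members include 0.

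In whole liver, a change in the number of cells that carry a Ly6 protein cannot be told apart from a change of RNA per cell. Markers of the cell types in which members are known were therefore read beside them, and their part in the members' values was not tested. Ptprc, which encodes the leukocyte antigen CD45, had 15.5, 11.4 and 17.3 CPM in AS replicates 1, 2 and 3 and 25.6, 26.4 and 24.1 CPM in SS replicates 1, 2 and 3 (adjusted p = 0.266 by edgeR, log2 change 0.77, SE 0.268). The SS libraries spread by 1.10-fold in Ptprc and by 4.04-fold in Ly6d, and any link of Ptprc to Ly6d was not tested. Which SS library stood highest in a list is given below as a description only.

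For Ly6d, the 12 B lineage markers summed to 7.41 to 10.7 CPM in AS and 21.0 to 40.8 CPM in SS, with SS replicate 1 highest. Rag1, the recombinase of B and T cell precursors, had 0 reads in all libraries. All 7 tested had fitted values above 0 (median 1.89), none was called by edgeR, DESeq2 or limma-voom, and 3 had an unadjusted edgeR p under 0.05. Blnk, a B cell adaptor, had the lowest p (adjusted p = 0.110 by edgeR, log2 change 1.72, SE 0.423). Of 12 squamous epithelial markers, 6 keratin genes (Krt5, Krt14, Krt15, Krt13, Krt17 and Krt6a) had 0 reads in all libraries. The 1 tested, Perp, a desmosome protein also made by other epithelia, gave an adjusted p of 0.315 by edgeR at a log2 change of -0.59 (SE 0.223). Without Perp the other 11 summed to 0.161 to 0.461 CPM in AS and 0.469 to 3.03 CPM in SS. Any link of these markers to Ly6d was not tested. The 8 plasmacytoid dendritic cell markers summed to 302 to 419 CPM in AS and 201 to 508 CPM in SS, mostly from Bst2. Without Bst2 they summed to 34.9 to 48.7 and 52.0 to 85.1 CPM. Of the 4 tested none was called by edgeR or limma-voom and 1 by DESeq2, with an unadjusted edgeR p under 0.05 in 2 and a median of 0.55. Runx2 had the lowest p (adjusted p = 0.132 by edgeR, log2 change 3.77, SE 0.991).

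For Ly6c2 and Ly6c1, 1 of 13 tested monocyte markers was called, with a median log2 change of 1.16. Ccr2, the chemokine receptor of inflammatory monocytes, rose from 1.38, 1.61 and 2.04 CPM in AS replicates 1, 2 and 3 to 8.31, 7.18 and 7.20 CPM in SS replicates 1, 2 and 3 (adjusted p = 0.0462 by edgeR, log2 change 2.15, SE 0.420). That call ended when any single library was left out, with adjusted p by edgeR from 0.0687 to 0.231. It also ended with AS replicates 2 and 3 summed (edgeR adjusted p 0.192) and with median-ratio scaling (edgeR adjusted p 0.0507). By limma-voom it was not made (adjusted p 0.100). DESeq2, run without the filter on low counts, called 2 of 14 monocyte markers. Over all alternatives the log2 change of Ccr2 stayed at 2.01 to 2.42. The summed list, most of it the hepatocyte product Fn1, was 1478 to 1947 CPM in AS and 1203 to 2128 CPM in SS. Without Fn1 it was 228 to 306 and 270 to 683 CPM, with SS replicate 2 highest. The groups did not overlap in Ccr2 and overlapped in Ly6c2.

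Neutrophil markers are given because Ly6g is not analysed here. Of 8 tested, 3 rose (Lcn2, Ngp and Mpo), with a median of 4.04. The calls fell to 1 without AS replicate 1, 2 or 3 or without SS replicate 2, and to 1 by limma-voom, and the 1 that remained called in each was Lcn2. Mpo was also lost with median-ratio scaling (adjusted p = 0.0521 by edgeR). DESeq2, run without the filter on low counts, called 7 of 12 neutrophil markers. Lcn2, a siderophore-binding protein that hepatocytes also make, rose from 19.0 ± 6.64 to 236 ± 119 CPM (SD, n = 3; adjusted p = 0.00405 by edgeR, log2 change 3.63, SE 0.430). The 12 markers summed to 23.2 to 35.4 CPM in AS and 164 to 456 CPM in SS, and without Lcn2 to 8.75 to 9.16 and 30.6 to 94.1 CPM. SS replicate 2 was highest in these sums.

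For Ly6a, the 8 tested stem and progenitor markers all had fitted values above 0 (median 0.92), none was called by edgeR or limma-voom and 1 by DESeq2, and 1 had an unadjusted edgeR p under 0.05. This was Cd34, a sialomucin of progenitors and vessels (adjusted p = 0.0682 by edgeR, log2 change 2.11, SE 0.459). Their sum was 48.3 to 62.5 CPM in AS and 51.6 to 116 CPM in SS, highest in SS replicate 3. The 14 endothelial markers had a median of 0.11, none called by edgeR or limma-voom and 2 by DESeq2, with 2 at an unadjusted edgeR p under 0.05. Vwf, the von Willebrand factor gene, had the lowest p (adjusted p = 0.0752 by edgeR, log2 change 1.51, SE 0.336). Their sum was 439 to 580 CPM in AS and 428 to 756 CPM in SS, again highest in SS replicate 3. The 5 tested T and NK cell markers gave no call by edgeR, DESeq2 or limma-voom and no unadjusted edgeR p under 0.05, and summed to 7.49 to 10.6 and 6.20 to 17.2 CPM. Lck, a T cell kinase, had the lowest p (adjusted p = 0.714 by edgeR, log2 change 0.58, SE 0.608).

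Ly6e and Ly6a are induced by interferon, and of 20 interferon response genes tested 1 was called, with 12 fitted values above 0 and a median of 0.15. Rsad2, which encodes the antiviral enzyme viperin, rose from 8.52, 10.1 and 14.1 CPM in AS replicates 1, 2 and 3 to 60.2, 81.3 and 74.5 CPM in SS replicates 1, 2 and 3 (adjusted p = 0.00193 by edgeR, log2 change 2.71, SE 0.285). The other 19 were not called, as Ly6e and Ly6a were not. The summed list was 421 to 490 CPM in AS and 447 to 694 CPM in SS, highest in SS replicate 2 and lowest of SS in replicate 3. Ly6d had this order as well as Ly6a and Ly6e, and a link was not tested.

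Markers of other cell types also differed between the genotypes. Of 10 tested erythroid precursor markers 5 rose, among them Alas2, which starts heme synthesis, and Slc4a1, the anion exchanger of the red cell membrane (log2 changes 3.14 and 4.62, SE 0.290 and 0.549). The list summed to 45.8 to 65.0 CPM in AS and 251 to 505 CPM in SS, with the highest value in SS replicate 3. Of 7 cholangiocyte markers 2 rose, Cd24a and Prom1 (log2 changes 3.03 and 3.56, SE 0.315 and 0.494), with sums of 105 to 125 and 213 to 327 CPM. Of 12 fibroblast and stellate markers 2 rose, Lum and Col1a2 (1.86 and 1.65, SE 0.276 and 0.252), with sums of 399 to 460 and 537 to 801 CPM. Calls in the erythroid list fell to 2 without AS replicate 1 and to 3 without AS replicate 2 or 3 or SS replicate 2 or 3, those of Lum and Col1a2 ended without any 1 AS library or SS replicate 2, and that of Prom1 without AS replicate 1 or 2 or SS replicate 2. By limma-voom 2 of the 10 erythroid markers were called, and Slc4a1 (adjusted p = 0.0597) and Prom1 (0.0990) were not. DESeq2 called 7 erythroid, 2 cholangiocyte and 3 fibroblast and stellate markers. The 9 tested hepatocyte markers had a median of -0.31 (-0.017 when scaled by library totals alone), with 1 called by DESeq2 and none by edgeR or limma-voom. That was Cyp2e1, a cytochrome of the lobule centre (adjusted p = 0.245 by edgeR, log2 change -0.82, SE 0.269), the 1 hepatocyte marker at an unadjusted edgeR p under 0.05.

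**Figure D5:**
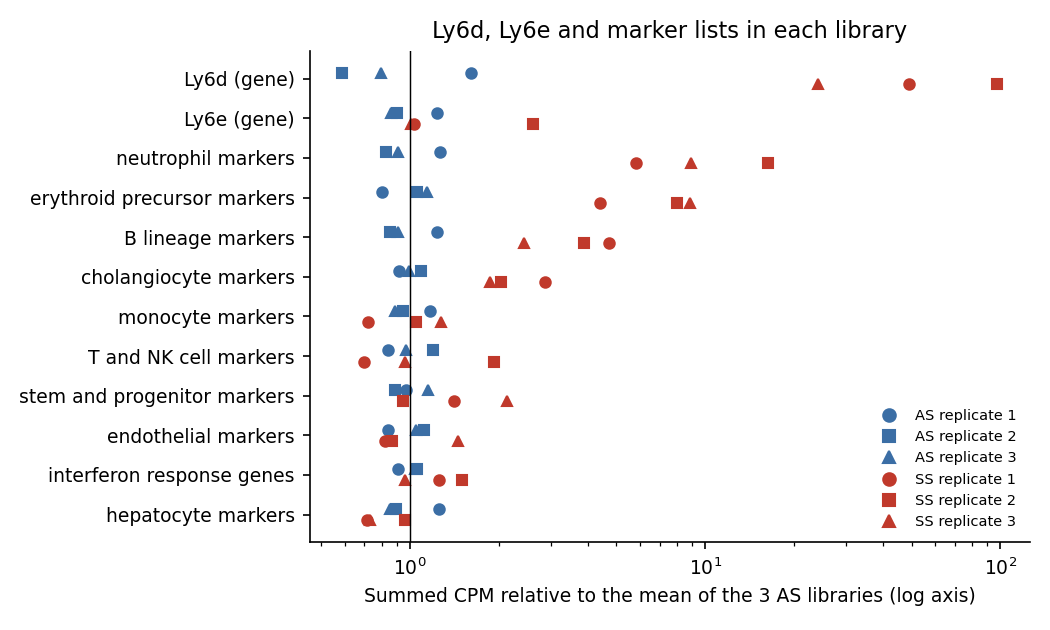
CPM of Ly6d and Ly6e and summed CPM of 10 gene lists in each library, relative to the mean of the 3 AS libraries (log axis). Ly6d has the widest gap between genotypes among the plotted rows. SS replicate 2 is highest in Ly6d, Ly6e and the neutrophil, T and NK cell and interferon response sums.

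Genes whose level followed a member most closely over the 6 libraries were taken by the smallest root-mean-square difference in centred log2 CPM, among 11653 genes of at least 1 CPM on average. Ly6d was nearest to Ltf, the neutrophil granule protein lactoferrin (0.515 log2 units), Bmp8b, a bone morphogenetic protein (0.542), and Add2, an adducin of the red cell skeleton (0.727). Ltf and Bmp8b had 0 CPM in all AS libraries, and Add2 had 0.115, 0 and 0 CPM in AS replicates 1, 2 and 3. Ltf had 1.45, 5.51 and 1.25 CPM in SS replicates 1, 2 and 3. The likeness of Ltf, Bmp8b and Add2 to Ly6d thus depends on the prior count of 0.5. Ly6e was nearest to Gngt2, a G protein subunit (0.101), and the complement genes C1qb and C1qc of macrophages (0.110 and 0.121). C1qb had 119, 75.9 and 72.9 CPM in AS replicates 1, 2 and 3 and 89.9, 241 and 105 CPM in SS replicates 1, 2 and 3. Ly6a was nearest to Cd300ld, a myeloid receptor (0.0840), Vegfb, a vascular growth factor (0.123), and Slc16a11, a monocarboxylate transporter (0.124). Ly6c2 was nearest to Phf11d, Fcgr4, an IgG receptor of myeloid cells, and Lck (0.236, 0.250 and 0.277). These are descriptions over 6 libraries that differ in genotype and depth.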

How the data were processed

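Liver RNA of 3 AS and 3 SS libraries was analysed from raw read counts per gene that the authors deposited, 1 table per library. Per the submitters' processing notes, HISAT2, HTSeq and mm10 were used. Versions, annotation and strand setting are not given in the sources used here. Counter lines outside genes were left out of library sizes.

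Genes were filtered with filterByExpr (minimum count 10, minimum total 15), leaving 12622 genes with 99.8% of gene reads. The 2 genotypes were tested with edgeR 4.0.16 under R 4.3.3 (trimmed-mean factors, robust quasi-likelihood F-test, two-sided, Benjamini-Hochberg over all genes tested, threshold 0.05). SE came from the F statistic. Ratios of summed counts carry exact 95% intervals that cover counting error only. DESeq2 1.42.0 and limma-voom (limma 3.58.1) were alternatives. Coordinates, exon lengths and transcripts came from GENCODE M21, on the same build.

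Members and lists were chosen with earlier results of these data known. All members are named. Of each list, up to 3 called genes were named, otherwise the gene with the lowest p, and of each tested member the 3 genes nearest in pattern. Of the genes so named, 1 is not reported here. Neighbours of Ly6d, further family genes, Ptprc and sums without 1 abundant gene (Fn1, Lcn2, Perp, Bst2) were added, these sums after their values were seen.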

Additional observations from a re-analysis of the deposited data

How the results depend on the processing

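The log2 change of Ly6d was 5.14 to 6.65 over the 17 alternatives, and it was the 1 member called in each. Since the family was selected on this contrast, these calls support nothing. Ly6a (0.11 to 0.78), Ly6e (0.013 to 1.04) and Ly6c2 (0.45 to 1.73) kept their sign and were called in none. No other Ly6/uPAR domain gene was called in any alternative. The number of genes called over the whole table was 122, but 217 with no low-count filter, 370 by DESeq2, 31 by limma-voom and 22 to 99 in the fits without 1 library. Chosen after seeing the data, it was 662 after leaving out both AS replicate 1 and SS replicate 3 and 31 with AS replicates 2 and 3 summed. With the replicate number as a block 460 genes were called, and Ly6d stayed the 1 member called (log2 change 5.57). The labels do not say whether the numbers pair the samples, and so few libraries cannot decide it. The correlations of same-numbered deviations were 0.041, -0.099 and 0.165, and AS replicate 1 correlated best with SS replicate 2 (0.207). Library totals alone moved the median log2 change of all genes from 0.08 to 0.36, and Ly6d to 6.04. The fitted sign turned in 2 genes, neither of them a member. Lypd1 was 0.21 with library totals alone, 0.17 without both AS replicate 1 and SS replicate 3, and -0.48 to 0.21 without 1 library (above 0 without AS replicate 3, 0.0024, SS replicate 1, 0.071, or SS replicate 3). Cd59a was 0.0093 with upper-quartile factors, 0.25 with library totals alone, 0.65 without both those libraries, and -0.29 to 0.31 without 1 library (above 0 without AS replicate 1 or without SS replicate 3, 0.30). The cause was not tested. Depth limits Ly6c1, Ly6h, Ly6i and Ly6k, which had at most 32 reads in a library.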

Other observations

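Between Ly6f and Ly6h lies 9030619P08Rik, annotated as a transcribed pseudogene, which was lower in each SS library than in any AS library and was named after its values were seen. It had 94.1, 103.7 and 82.1 CPM in AS replicates 1, 2 and 3 and 57.9, 33.5 and 18.9 CPM in SS replicates 1, 2 and 3. Its log2 change was -1.35 (SE 0.364) and did not pass the test over all genes (edgeR adjusted p = 0.144), while DESeq2 called it (adjusted p = 0.0180). Over all alternatives the adjusted p ran from 0.000281 with the replicate number as a block to 0.407 without AS replicate 2. Outside that interval, 2010109I03Rik, which lies between Gml2 and Ly6e, had 9 reads in SS replicate 1 and none in the other 5 libraries.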
